A study of Homo sapiens with 2 samples.

Results

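The HLA class I antigen presentation genes described here are HLA-B, HLA-C and HLA-E, which encode class I heavy chains, B2M for the light chain, TAP1 and TAP2 for the peptide transporter, TAPBP for the loading protein tapasin, and PSMB8 and PSMB9 for catalytic subunits of the immunoproteasome. They are 9 of the 21614 genes with a symbol on the array. They were listed by name, with earlier results of these data known, and found through the RefSeq accession of each non-control probe. The array carried 13 probes for them, in 22 spots. Of these genes 8, measured by 11 probes, were well above background on both arrays. The PSMB8 probe was printed on both arrays but was not well above background on either.

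Gene expression was measured in HCT116 cells, an established human colon cancer line, that carried the pEB expression vector and had been kept in blasticidin for 2 weeks. The mock group received pEB-mock, and the HOXA5 short group received pEB carrying HOXA5 short RNA, which is a non-coding transcript of the HOXA6-HOXA5 locus. Cy3-labelled RNA from 400 ng of total RNA was hybridized to Agilent 1-colour arrays, with 1 array per group on the same slide. No test between the groups and no p-value is therefore possible, spread between cultures is unknown, and every comparison below is between these 2 arrays.

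Class I molecules show peptides from proteins made inside the cell to CD8 T cells, and HLA-E is recognised by receptors of natural killer cells. Proteasomes cut the proteins, TAP1 and TAP2 carry the peptides into the endoplasmic reticulum, and tapasin holds empty heavy chains bound to B2M beside the transporter until a peptide fits. Interferon raises most of these genes together, through the factor IRF1 and the coactivator NLRC5, and colon cancers can lose class I at the cell surface through mutation or silencing of these genes.

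HOXA5 itself was read first as a check of the labels. Its probe (NM_019102) read 39.4 (error 4.32) in mock cells and 346 (error 34.6) in HOXA5 short cells, which after scaling is 7.11-fold or 2.83 in log2 units. This direction followed the labels, although coding HOXA5 mRNA and the short RNA cannot be told apart by this probe. Of 7 epithelial marker genes, CDH1, EPCAM, KRT8, KRT18 and KRT19 were well above background on both arrays and CDH17 and VIL1 on neither, and the summed scaled level of the list was 1688 and 1727.

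All 3 heavy chains were higher in the HOXA5 short sample than any other member compared. Each array was scaled to the 75th percentile of its processed signals (35.7 in mock and 44.0 in HOXA5 short), and differences are log2 values, HOXA5 short minus mock. On that scale HLA-B was 0.66, HLA-C 0.58 and HLA-E 0.45, while the other 5 members compared lay between -0.04 and 0.27 with a median of 0.14. The median over all 8 members compared was 0.21, against -0.02 over the 11996 genes compared, whose SD was 0.29 and whose 5th and 95th percentiles were -0.39 and 0.45. Above 0 were 7 of the 8 members and 45.5% of all genes.

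Only HLA-B among the 8 members reached 1.5-fold higher, where 2.78% of all genes did, and HLA-C at 1.49-fold lay just below. No member was at least 1.5-fold lower (1.6% of all genes), at least 2-fold higher (0.642%) or at least 2-fold lower (0.258%). Of the genes past 1.5-fold, 63.4% were higher in the HOXA5 short sample. This split rested on the scaling, since it was 79.6% when arrays were scaled to their median and 99.3% when they were scaled to the spike-in RNAs. The order of heavy chains above the other members does not depend on a shift common to all genes.

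**Figure D1:**
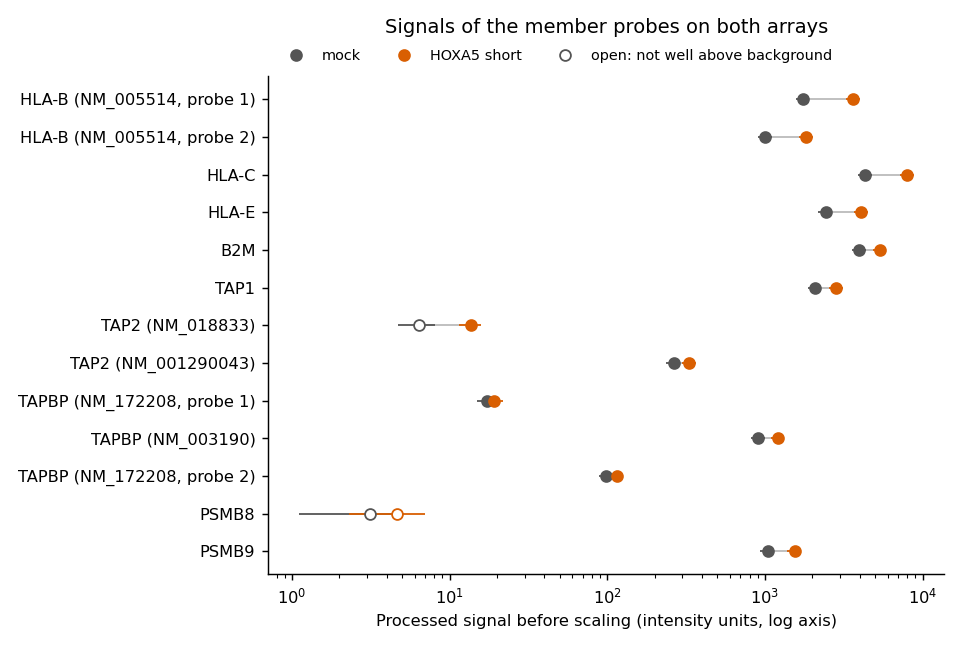
Processed signal of each of the 13 member probes (log axis, intensity units before scaling) in mock and in HOXA5 short cells, 1 array each. Lines through the points are the error that the scanner software gives, and open circles mark probes not well above background. All 11 probes compared were brighter on the HOXA5 short array before scaling, by 1.11 to 2.09 times, and among these the heavy chains were the farthest apart. The dim TAP2 probe, which was not compared, was 2.14 times brighter.

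The proximal promoters of HLA-B and HLA-C are shown first because these are the members with the largest differences and their sequences are near copies of each other. Class I promoters are known to combine a site for NF-kB, a site for interferon regulatory factors, and the X and Y boxes on which the NLRC5 complex assembles. The lines give 200 bases that end at the base before the RefSeq gene start in build GRCh38.p14, at chr6:31357180-31357379 (minus strand) for HLA-B and chr6:31272093-31272292 (minus strand) for HLA-C. Capitals mark, from left to right, GGGGATTC (a kappa B form), GAANNGAAA read on the opposite strand (an interferon response core), TGACG (letters of the X2 box) and the ATTGG (letters of the Y box) spaced from it. Other ATTGG matches on either strand are left in lower case.
HLA-B: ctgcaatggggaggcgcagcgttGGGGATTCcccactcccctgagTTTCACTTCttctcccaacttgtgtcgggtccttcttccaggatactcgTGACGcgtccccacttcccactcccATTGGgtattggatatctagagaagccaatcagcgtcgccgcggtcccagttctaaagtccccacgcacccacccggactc
HLA-C: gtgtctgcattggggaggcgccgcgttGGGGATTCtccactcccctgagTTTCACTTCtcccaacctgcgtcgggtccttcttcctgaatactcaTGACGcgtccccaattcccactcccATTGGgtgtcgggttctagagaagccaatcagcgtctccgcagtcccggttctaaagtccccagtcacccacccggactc

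Over the 250 bases before their starts, the 2 promoters matched at 226 of 254 aligned positions (89.0%). GGGGATTC stood in both, and in 0.772% of 35116 RefSeq promoters of the same length. TGACG followed on the same strand by ATTGG that starts 20 to 30 bases on was found in HLA-B, HLA-C and B2M and in 0.219% of promoters. The motifs were searched on both strands unless stated, and the spacing was chosen after these sequences had been looked at. Such a match is a description of letters, and binding was not measured.

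HLA-B encodes a classical heavy chain that presents peptides to CD8 T cells and binds killer cell receptors. Its first probe (NM_005514) read 1738 (error 174) in mock and 3632 (error 363) in HOXA5 short cells, a difference of 0.76. The second probe of the same accession read 1008 (error 101) and 1828 (error 183), a difference of 0.55. Both probes were higher in the HOXA5 short sample, and their mean of 0.66 corresponds to 1.58-fold. A difference at least as high was seen in 256 genes, 2.13% of those compared.

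HLA-C, a classical heavy chain and the main ligand of several killer cell receptors, was measured by 1 probe (NM_001243042). It read 4336 (error 434) and 7985 (error 798), a difference of 0.58 or 1.49-fold, which 343 genes (2.86%) matched or exceeded. HLA-E, a less variable heavy chain that displays leader peptides of other class I molecules, was measured by 1 probe (NM_005516) that read 2426 (error 243) and 4091 (error 409). Its difference was 0.45 or 1.37-fold, and 595 genes (4.96%) were at least as high. HLA-E thus lay at the edge of the central range of all genes, and HLA-B and HLA-C above it.

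These 3 genes were bright, so they were also read against the 1667 genes with a mock signal of at least 1000, whose median difference was -0.04 with an SD of 0.24. Of these, 24 (1.44%) were at least as high as HLA-B, 31 (1.86%) as HLA-C and 48 (2.88%) as HLA-E. The error of each heavy chain difference, propagated from the scanner software, was 0.20. Probes printed in several spots gave a second measure of technical spread. Among 87 such probes with a mock signal of at least 1000, the difference of a single spot had an SD of 0.16 around its probe mean, and 95% of spots lay within 0.25. The 4 heavy chain probes, at 0.45 to 0.76, all exceeded that range. Among themselves the 3 genes were at most 0.21 apart, from HLA-B to HLA-E, which is inside that range. Repeated spots hold no spread between cultures, labellings or arrays.

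**Figure D2:**
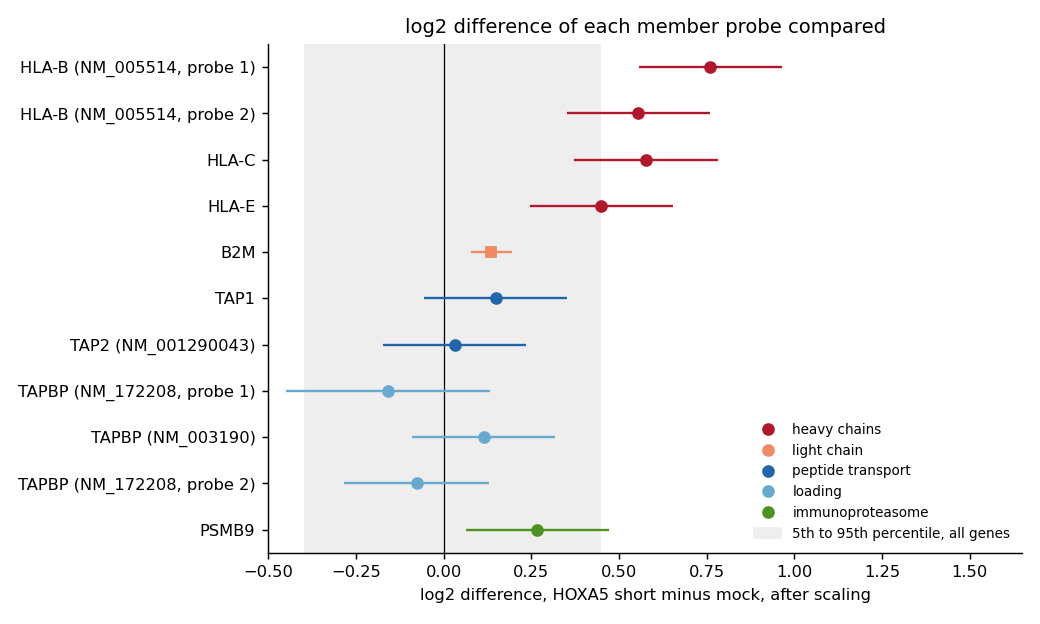
Log2 difference, HOXA5 short minus mock after scaling, of the 11 member probes compared, 1 array per group. Circles carry the propagated error of a single spot, the square for B2M carries the SD over 10 spots, and the grey band spans the 5th to 95th percentile of all genes. The 4 heavy chain probes lay at 0.45 to 0.76, and the 7 probes of the other members at -0.16 to 0.27.

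B2M, the light chain that every class I heavy chain needs to leave the endoplasmic reticulum, was the member with the most spots. Its probe (NM_004048) was printed 10 times, with a lowest, median and highest signal of 3767, 3930 and 4165 in mock and of 4799, 5402 and 5844 in HOXA5 short cells. The signals of the arrays did not overlap before scaling, but the 75th percentile of all probes was also higher on the HOXA5 short array. After scaling the difference was 0.14 ± 0.06 (SD, n = 10 spots of 1 array pair), or 1.10-fold, with single spots between 0.0002 and 0.20. At least as high were 2711 genes (22.6%). B2M therefore lay within the range of most genes, below each heavy chain.

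The B2M promoter is shown because it shares the spaced TGACG and ATTGG letters with HLA-B and HLA-C while its difference was smaller. The 200 bases lie at chr15:44711317-44711516 (plus strand, GRCh38.p14). Capitals mark 2 overlapping matches of GAAANNGAA, the core of the interferon-stimulated response element, then GGNNTTTCC (a general kappa B form) read on the opposite strand, TGACG and the ATTGG spaced from it.
B2M: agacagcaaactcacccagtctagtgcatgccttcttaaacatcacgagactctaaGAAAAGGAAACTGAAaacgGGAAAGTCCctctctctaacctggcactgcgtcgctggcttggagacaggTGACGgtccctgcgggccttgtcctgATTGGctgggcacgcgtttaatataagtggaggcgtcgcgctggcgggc

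TAP1 forms the peptide transporter with TAP2, and both need each other for transport. The TAP1 probe (NM_000593) read 2070 (error 207) and 2832 (error 283), a difference of 0.15 or 1.11-fold, with 2516 genes (21.0%) at least as high. The TAP2 probe NM_001290043 read 263 (error 26.4) and 332 (error 33.3), a difference of 0.03 or 1.02-fold, with 4666 genes (38.9%) at least as high. Both differences lay inside the spread of repeated spots of like brightness, whose 95% range was 0.25 for bright probes and 0.28 for mock signals of 200 to 1000. A second TAP2 probe, NM_018833, was dim. It read 6.39 (error 1.68) in mock cells, where it was not well above background, and 13.7 (error 2.19) in HOXA5 short cells, which gives at least 1.43-fold higher against the lowest signal well above background, and it did not enter the value of the gene. The TAP2 probes thus gave different values, and the brighter one was close to 0.

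TAPBP encodes tapasin. Its brightest probe (NM_003190) read 905 (error 90.5) and 1210 (error 121), a difference of 0.11. A probe of NM_172208 read 98.4 (error 9.96) and 115 (error 11.6), a difference of -0.08, and another of the same accession read 17.3 (error 2.47) and 19.1 (error 2.72), a difference of -0.16. Their mean was -0.04, and 6490 genes (54.1%) were at least as high. The 3 probes fell on both sides of 0, each within its propagated error of 0.20 to 0.29.

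The promoters of TAP1 and TAPBP are shown beside those of HLA-B and HLA-C, as both hold interferon response cores and kappa B letters next to small differences. The stretches are chr6:32853705-32853904 for TAP1 and chr6:33314079-33314278 for TAPBP, both on the minus strand of GRCh38.p14. Capitals mark GAAANNGAA (overlapping matches, read on the opposite strand in TAP1) and GGNNTTTCC (read on the opposite strand at the first place in TAPBP).
TAP1: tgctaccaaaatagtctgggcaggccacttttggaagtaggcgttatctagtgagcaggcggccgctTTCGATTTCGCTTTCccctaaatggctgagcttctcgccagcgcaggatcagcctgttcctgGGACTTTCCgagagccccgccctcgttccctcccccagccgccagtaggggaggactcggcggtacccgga
TAPBP: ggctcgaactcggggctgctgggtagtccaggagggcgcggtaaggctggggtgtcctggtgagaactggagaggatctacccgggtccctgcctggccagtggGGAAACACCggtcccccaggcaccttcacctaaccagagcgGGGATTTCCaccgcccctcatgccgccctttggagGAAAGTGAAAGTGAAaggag

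Of the 8 members with a promoter in the RefSeq table, GAAANNGAA was found in B2M, TAP1, TAP2 and TAPBP, against 6.88% of all promoters. GAANNGAAA was found in HLA-B, HLA-C and TAP2, against 6.56%. GGNNTTTCC was found in B2M, TAP1 and TAPBP, against 5.48%, and TTCNNNGAA, a gamma-activated site form, against 6.57%, in the second of 2 listed promoters of TAP1 and of PSMB8 and not in the TAP1 stretch printed above. Shares of all promoters count each promoter once, whereas a member with 2 promoters was counted if either held the motif. HLA-F, a heavy chain outside the members with a difference of 0.56, was searched as well. Of all the letters searched it held only GAAANNGAA and ATTGG, so the letters marked in HLA-B and HLA-C were not common to the heavy chains. TAP1 and PSMB9 start 488 bases apart on opposite strands and share the sequence between them. Their differences were 0.15 and 0.27.

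PSMB9 and PSMB8 replace constitutive catalytic subunits of the proteasome when immunoproteasomes form. The PSMB9 probe (NM_002800) read 1040 (error 104) and 1545 (error 155), a difference of 0.27 or 1.20-fold, with 1335 genes (11.1%) at least as high. PSMB9 was the highest member outside the heavy chains, a little beyond the 0.25 that held 95% of bright repeated spots. The PSMB8 probe (NM_004159) read 3.14 (error 2.03) and 4.65 (error 2.34), not well above background on either array, so no fold is given.

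**Figure D3:**
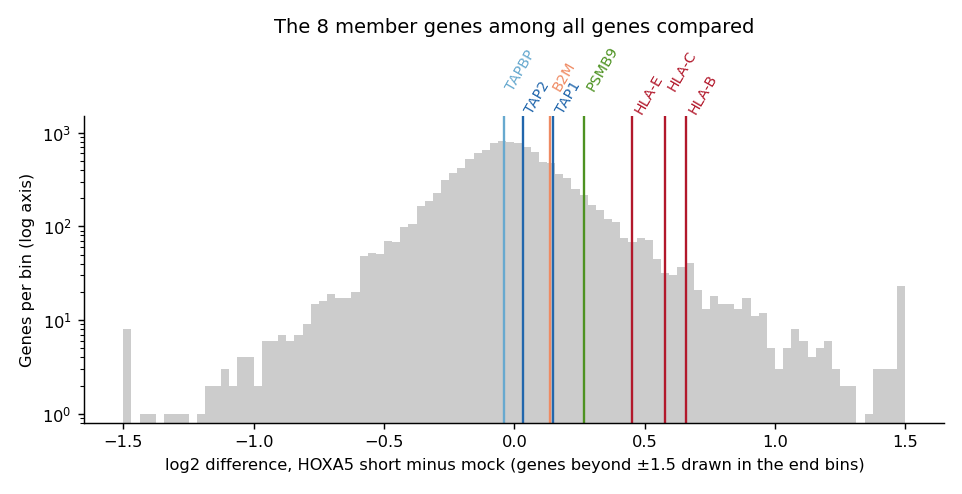
Histogram of the log2 difference, HOXA5 short minus mock, of the 11996 genes compared (grey bars, log count axis, genes beyond the axis collected in the end bins), with the 8 member genes as coloured lines. TAPBP, TAP2, B2M and TAP1 lay between -0.04 and 0.15 in the bulk of the genes, PSMB9 at 0.27, and the heavy chains at 0.45, 0.58 and 0.66 in the right flank.

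Position on the slide was read beside these values. Each member spot had 20 to 40 well measured spots around it, of which at most 1 differed 2-fold, and none lay in an uneven area of the grid. With the median of the neighbours subtracted, the heavy chain probes stood at 0.48 to 0.67 and the highest other member probe compared at 0.36. None of the member spots was flagged by the scanner software.

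The remaining class I molecules were described with the members. Of 8 such genes 6 were compared, with a median of 0.22 and 5 above 0, from MICA, a stress ligand of natural killer cells, at -0.12 to HLA-F at 0.56, and none reached 1.5-fold. Class I heavy chains are close in sequence and vary between people and cell lines, the array files give no probe sequences, and signal from one heavy chain on the probe of another cannot be told apart from its own.

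Genes that work around the members were read by list. Loading and trimming factors (16 of 17 compared) had a median of 0.04, from LNPEP, an aminopeptidase, at -0.44 to SEC61A1, a channel subunit of the endoplasmic reticulum, at 0.48, and none was 1.5-fold apart. Proteasome partners (12 compared) had a median of 0.08 with PSME4, a proteasome activator, lowest at -0.25. The assembly chaperones PSMG2 at 0.81 (44.1 and 95.3) and POMP at 0.65 (49.7 and 95.9) were the genes of that list that passed 1.5-fold. PSMB10, the third inducible catalytic subunit, named after its values were seen, was 0.25.

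Regulators of class I transcription (23 of 26 compared) had a median of 0.07, and 14 were above 0. CREB1, a factor of the X2 box, was the highest at 1.20 and the single gene of the list past 1.5-fold, from dim signals of 11.9 and 33.8, and IFNAR1, an interferon receptor chain, was the lowest at -0.37. The interferon factor IRF1 at 0.45 and NLRC5 at 0.26, from signals of 10.9 and 16.1, are named after their values were seen. Class II molecules (8 of 11 compared) had a median of 0.11, from HLA-DOB, a chain that modulates class II loading, at -0.31 to HLA-DQB1, a class II beta chain, at 0.42.

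Most members lie in the major histocompatibility complex on chromosome 6, so the genes between HLA-F and TAPBP were read as well. Of 285 in the gene table, 98 were compared, with a median of 0.04 and 57 above 0. Their range ran from DDAH2 at -0.46 to NFKBIL1 at 0.65, which was the single neighbour past 1.5-fold and whose probes differed, at -0.09 and 1.40. Without the genes of the other lists, 85 neighbours had a median of 0.02 and 47 above 0. The members' median of 0.21 stood above that of the region around them, as a description of these arrays.

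**Figure D4:**
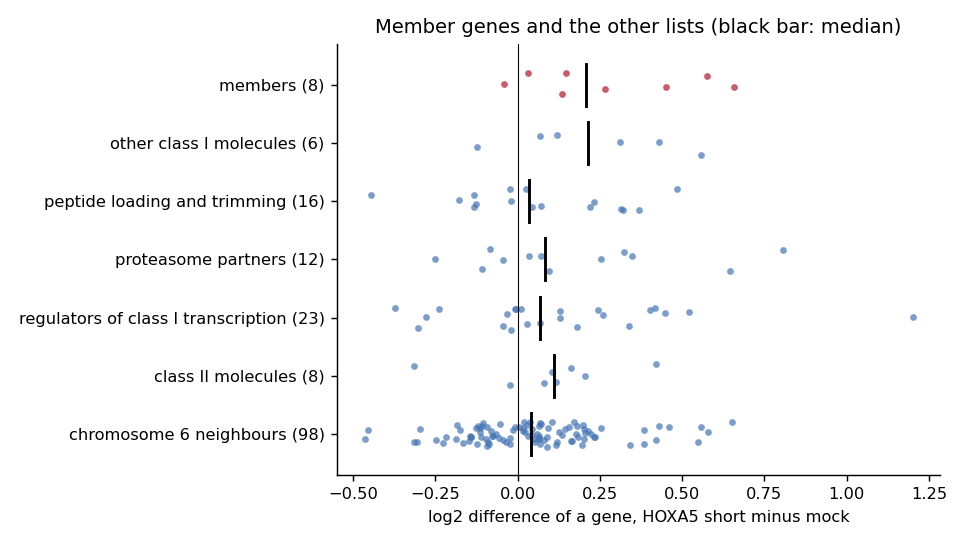
Log2 difference, HOXA5 short minus mock, of each gene compared (points) in the member list and 6 other lists, with the number of genes in brackets and the median as a black bar, 1 array per group. The medians were 0.21 for the members, 0.22 for other class I molecules and 0.04 to 0.11 for the other lists, and CREB1 stands alone at 1.20.

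Markers of other cell types were read beside the class I values. Of 12 genes of blood and immune cells 11 were on the array, of which 1 in mock and 3 in HOXA5 short cells were well above background. CD79A was seen on both (393 and 625, a difference of 0.37) and CD14 and CD3D on the HOXA5 short array alone, while none of 5 probes of PTPRC, the leukocyte surface phosphatase, was. The summed scaled level of the list was 11.9 and 15.1, a ratio of 1.27. Fibroblast markers (1 of 6, COL1A1) summed to 0.712 and 0.729, and endothelial markers (0 of 5) to 0.356 and 0.291. The part of these levels in the class I differences was not tested.

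The members were recomputed under 12 other settings of scaling, normalization, background correction and filtering. In all 13 settings, the reported one included, each heavy chain stood above every other member compared, and the members' median exceeded the median of all genes by 0.21 to 0.37. Not every setting could change this. Scaling to the median, to detected probes or to the spike-ins shifts all genes alike, which leaves the order and the excess as they were. Leaving out uneven areas removed no member spot. The sizes did depend on the setting. HLA-B was 1.13, HLA-C 1.05 and HLA-E 0.93 when arrays were scaled to the spike-in RNAs, which raised every gene by 0.48 and the median of all genes to 0.46, so 2 members then passed 2-fold. TAPBP, at -0.04, was above 0 in 6 of the settings.

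**Figure D5:**
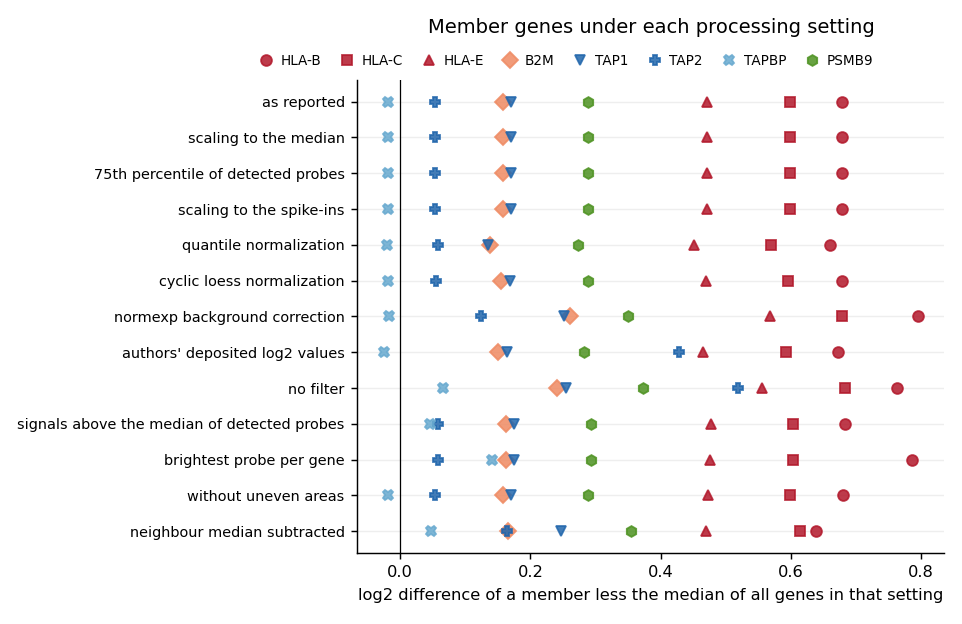
Log2 difference of each member gene less the median difference of all genes under the same setting (horizontal axis), for the reported setting and 12 alternatives (rows). Red symbols are heavy chains, and in every row they lie to the right of all other members compared, closest to TAP2 with the authors' deposited values and with no filter (HLA-E 0.45 and TAP2 0.41 in both before the subtraction).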

How the data were processed

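Groups were taken from the genotype label. Per the file headers, Feature Extraction 11.5.1.1 quantified the spots. The deposited scanner files give the intensity of each spot after that software's background correction, with its error and flags. A log2 table that the authors deposited, centred per probe, served as an alternative. Its scaling is not stated, and its difference lay within 0.01 of the scanner difference, apart from a constant, for 99.2% of 17940 shared probes.

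Processed signals were converted to log2, spots of a probe averaged and the 75th percentile of 50599 non-control probes subtracted. Probes well above background on both arrays (17940) were compared, and a gene was the mean of its probes. No spot was saturated. Accessions were matched to RefSeq genes of GRCh38.p14, which named 30004 probes (59.3%). Promoters came from RefSeq GRCh38.p14, and HLA-E had no entry. Calculations used Python 3.11.15 and limma 3.58.1 in R 4.3.3, after tests on simulated data. Named genes were all members, HOXA5, and from each list the highest, the lowest and those past 1.5-fold; IRF1, NLRC5, PSMB10 and the cell type markers named stand outside this rule. Alternatives covered scaling, quantile and cyclic loess normalization, normexp (offset 50), filters, probe choice, slide position and a 3-fold threshold. The members, lists and rules were chosen with earlier results of these data known. The number of arrays limits the precision.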

Additional observations from a re-analysis of the deposited data

How the results depend on the processing

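Of 158 values recomputed under 13 alternatives, 139 stayed within the spread of repeated spots (0.16) or within 1.5 times the count, 19 did not, and no value changed from 1.5-fold higher to lower or the reverse. Some of the 139 could not move, since leaving out uneven areas removed no member spot. Scaling to the spike-in RNAs gave HLA-B 1.13, HLA-C 1.05, HLA-E 0.93, PSMB9 0.74, TAP1 0.63, B2M 0.61, TAP2 0.51 and TAPBP 0.44, a members' median of 0.68, 6 members past 1.5-fold and 2 past 2-fold, all higher. This follows from its common shift of 0.48. Normexp background correction gave HLA-B 0.82 and B2M 0.29, with 3 members at least 1.5-fold higher. TAP2 was 0.41 with the authors' deposited values and 0.41 with no filter, both of which take in its dim probe. Members at least 1.5-fold higher numbered 2 with scaling to the median, 2 with cyclic loess and 2 with the neighbours' median subtracted.

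All genes at least 1.5-fold higher numbered 333 as reported, 500 with scaling to the median, 3130 with the spike-ins, 160 with normexp, 579 with the deposited values, 1233 with no filter and 131 with signals above the median of detected probes. The share of higher among 1.5-fold calls was 87.9% with normexp, 45% with no filter and 74.9% with the brighter probes, against 63.4%; the cause was not tested. No paired analysis was possible because each group has 1 array. HLA-C, HLA-E, TAP1 and PSMB9 each rest on 1 spot, and array signals over background limit PSMB8 and the dim TAP2 probe.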
